A study of Mus musculus with 6 samples.

Results

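The Cyp4 fatty acid hydroxylases were 6 listed genes, *Cyp4a10*, *Cyp4a12a*, *Cyp4a12b*, *Cyp4a14*, *Cyp4a31* and *Cyp4b1*, of which 5 had a row among the 12125 genes of the deposited table. The set was chosen by measured values of these same libraries: *Cyp4a14* was near 0 in every Trf1+/+ library, whereas Trf1flox/flox libraries held 259.8 to 1535 normalized counts. Its difference between the genotypes is therefore given below as a description, and nothing is read from any test of it. All 5 listed members passed the filter on low values (at least 10 normalized counts in at least 3 of the 6 libraries), *Cyp4a14* only through the Trf1flox/flox libraries, and *Cyp4a12b* had no row.

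The study asked what loss of the telomere protein TRF1, encoded by *Terf1*, does in kidney fibroblasts of mice. RNA was sequenced from 3 Trf1+/+ and 3 Trf1flox/flox libraries, each made from 500 sorted cells. Mice of both genotypes carried Col1a2-CreERT2, a tamoxifen-dependent Cre under the *Col1a2* promoter, and one copy of the KFP reporter, a red fluorescent protein that Cre switches on by removing a stop cassette. Tamoxifen was started at 6 to 8 weeks of age in males and females and given over 8 weeks, after which cells were sorted on CD29 and the reporter. The sex of the mouse behind each library is not given in the labels. Fewer cells of a type and less RNA per cell cannot be told apart in such bulk libraries.

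The libraries held 10263382 to 12248797 reads over the listed genes. Fibroblast markers were at or near 0: only 3 of 16 had a row, their summed level was 1.66 to 105 normalized counts in Trf1+/+ and 15.5 to 102 in Trf1flox/flox, and *Col1a2* itself had at most 2 reads in any library. All 20 proximal tubule markers were listed, with sums of 28533 to 124422 in Trf1+/+ and 36066 to 156972 in Trf1flox/flox. The 8 markers of thick ascending limb and distal tubule summed to 82330 to 130278 in Trf1+/+ and 61424 to 152951 in Trf1flox/flox. Their sum was above the proximal tubule one in Trf1+/+ replicate 2 and Trf1flox/flox replicate 1. Erythroid markers reached 52403 in Trf1flox/flox replicate 3, against at most 10472 in Trf1+/+. The label fibroblast was thus not borne out by the markers. *Terf1* was 0.891, 253 and 235 normalized counts in Trf1+/+ replicates 1, 2 and 3, against 110.0, 7.65 and 12.4 in Trf1flox/flox. The groups overlapped: the library labelled Trf1+/+ replicate 1 had 1 *Terf1* read, and the library labelled Trf1flox/flox replicate 1 had 128, against 7 and 18 in the other Trf1flox/flox libraries, so that both went against their labels. The library labelled Trf1+/+ replicate 1 also had the lowest median gene level, 13.4 normalized counts against 118 to 148 in the others. Libraries are named below by their labels, and each direction is one between labelled genotypes.

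CYP4 enzymes are cytochromes P450 of the endoplasmic reticulum that hydroxylate fatty acids at or next to the end carbon, using electrons delivered by the reductase POR and by cytochrome b5. The product can be oxidized further to a dicarboxylic acid and shortened in peroxisomes, and hydroxylated arachidonic acid is a vasoactive lipid in the kidney. In mouse kidney the Cyp4a genes are known as proximal tubule genes and as targets of the fatty acid receptor PPARα, *Cyp4a12a* as a gene that androgens raise in males, and *Cyp4a14* as a gene more active in females.

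The members lie in a cluster on chromosome 4 (GRCm38), between the start of *Cyp4a12a* at base 115299046 and the end of *Cyp4b1* at base 115647723, with other genes between them. This interval of 348.7 kb holds 14 annotated genes, and the 5 listed members were the only ones of them with a row. *Cyp4a14* runs on the minus strand from 115486200 to 115496142. The nearest members are *Cyp4a12b* (115411624 to 115439034) and *Cyp4a10* (115518264 to 115533649), both on the plus strand. *Cyp4a30b* (115452604 to 115471062), not a member, lies between *Cyp4a12b* and *Cyp4a14*. *Cyp4a31* (115563649 to 115579015, plus strand) and *Cyp4b1* (115624725 to 115647723, minus strand) follow, with *Cyp4a32* (115600969 to 115621602) between them.

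The coding bases around the cysteine that holds the heme iron are shown to make visible how near the members are to each other, since that decides which of them a short read can tell apart. Each stretch of 42 bases is exonic and coding, spans the junction of exons 11 and 12 and was read from GRCm38 with the GENCODE M21 annotation, and the capitals mark the cysteine codon.
Cyp4a10: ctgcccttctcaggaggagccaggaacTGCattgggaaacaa
Cyp4a31: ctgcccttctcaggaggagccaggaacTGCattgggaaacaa
Cyp4a12a: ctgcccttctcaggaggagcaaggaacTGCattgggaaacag
Cyp4a12b: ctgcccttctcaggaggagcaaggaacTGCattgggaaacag
Cyp4a14: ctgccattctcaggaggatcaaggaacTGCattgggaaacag
Cyp4b1: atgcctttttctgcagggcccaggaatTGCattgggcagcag
The *Cyp4a10* and *Cyp4a31* stretches were identical, as were those of *Cyp4a12a* and *Cyp4a12b*. The *Cyp4a14* stretch differed from the *Cyp4a12a* one at 2 bases, from the *Cyp4a10* one at 4 and from the *Cyp4b1* one at 11.

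The same grouping held over the whole coding sequence. *Cyp4a12a* and *Cyp4a12b* were 98.5% identical, and *Cyp4a10* was 96.6% identical to *Cyp4a31* and 97.2% to *Cyp4a32*, a gene of the cluster with no row. *Cyp4a14* was 75.1% identical to *Cyp4a10*, 75.5% to *Cyp4a12a* and 57.5% to *Cyp4b1*. Of all 50-base windows of its transcript, 99.8% occurred in no other gene for *Cyp4a14* and 89.7% for *Cyp4b1*. That share was 78.2% for *Cyp4a31*, 69.5% for *Cyp4a10* and 51.1% for *Cyp4a12a*, so the levels of these 3 genes are uncertain as far as the counting could split or drop shared reads.

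*Cyp4a14*, the omega hydroxylase by which the set was chosen, had 0, 1 and 0 reads in Trf1+/+ replicates 1, 2 and 3, which is 0, 0.829 and 0 normalized counts. The Trf1flox/flox replicates 1, 2 and 3 held 1786, 986 and 377 of its reads, equal to 1535, 1078 and 259.8 normalized counts. The lowest Trf1flox/flox library was far above the highest Trf1+/+ library, and the Trf1flox/flox libraries themselves ranged over 5.91-fold. With 3 reads per library taken as the detection floor, the mean of 957 ± 646 (SD, n = 3) normalized counts was at least 354-fold higher than in Trf1+/+. This bound was at least 247-fold without Trf1flox/flox replicate 1, at least 352-fold without Trf1+/+ replicate 1 and at least 246-fold without both, whose *Terf1* reads went against their labels.

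Since *Cyp4a14* shared few windows with its neighbours, its share of the reads of the 4 listed Cyp4a genes was set beside its level. The share was 0 of 2529 reads in Trf1+/+ replicate 1 and 0 of 4181 in replicate 3. The floor of 3 reads would be 0.119% and 0.0718% of these, and the 95% Wilson upper limits were 0.152% and 0.0918%. In Trf1+/+ replicate 2 the share was 0.132% (95% Wilson interval 0.0233 to 0.743). In Trf1flox/flox it was 32.4% (31.1 to 33.6) in replicate 1, 21.6% (20.4 to 22.8) in replicate 2 and 6.50% (5.89 to 7.16) in replicate 3. The 3 Trf1flox/flox libraries differed from each other by more than counting error, which is all that these intervals and limits cover. Summed over the 4 Cyp4a genes, the level was 2334 ± 1747 normalized counts in Trf1+/+ and 4578 ± 518 in Trf1flox/flox, and 2333 ± 1748 against 3621 ± 368 without *Cyp4a14* (SD, n = 3 each).

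*Cyp4a10*, an omega hydroxylase inducible through PPARα, measured 1818, 555 and 1229 normalized counts for Trf1+/+, against 2504, 1296 and 1970 for Trf1flox/flox. It was the steadiest of the members, ranging over 3.27-fold within Trf1+/+ and 1.93-fold within Trf1flox/flox, and the groups overlapped. The means were 1201 ± 632 and 1923 ± 605, a fitted log2 fold change of 0.79 ± 0.58 (SE, on the log2(normalized count + 1) scale). It was 0.31 without Trf1+/+ replicate 2 and 1.17 without Trf1+/+ replicate 1. *Cyp4a31*, its near copy, was 281, 10.8 and 1885 in Trf1+/+ and 705, 1508 and 1432 in Trf1flox/flox. Here the Trf1+/+ libraries held both the lowest and the highest value and spanned 175-fold, while the Trf1flox/flox libraries spanned 2.14-fold. The fitted log2 fold change was 2.64 ± 1.43 (SE), but 0.66 without Trf1+/+ replicate 2, 4.32 without Trf1+/+ replicate 3, 0.74 in edgeR and 0.75 in DESeq2.

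*Cyp4a12a*, the androgen-raised omega hydroxylase, measured 154, 61.3 and 1006 normalized counts for Trf1+/+, against 0, 1112 and 336 for Trf1flox/flox. It had no read in Trf1flox/flox replicate 1, the library in which *Cyp4a14* was highest, and its highest value came from Trf1flox/flox replicate 2. The fitted log2 fold change of −1.57 ± 2.36 (SE) turned to 1.52 without Trf1flox/flox replicate 1. Of the 50-base windows of *Cyp4a12b*, 49.4% also occur in *Cyp4a12a*, and reads from them cannot be assigned to either gene.

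*Cyp4b1*, which hydroxylates shorter fatty acids and activates some protoxins, measured 4470, 1188 and 13067 normalized counts for Trf1+/+, against 366, 7169 and 11587 for Trf1flox/flox. The means were almost equal, 6242 ± 6134 and 6374 ± 5653 (SD, n = 3 each), and both groups were spread widely, over 11.0-fold and 31.7-fold. Its fitted log2 fold change of −0.40 ± 1.15 (SE) became 1.15 without Trf1flox/flox replicate 1 and 0.44 without Trf1+/+ replicate 3. The deposited reads gave no direction for *Cyp4b1* or *Cyp4a12a* that held over the libraries.

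**Figure D1:**
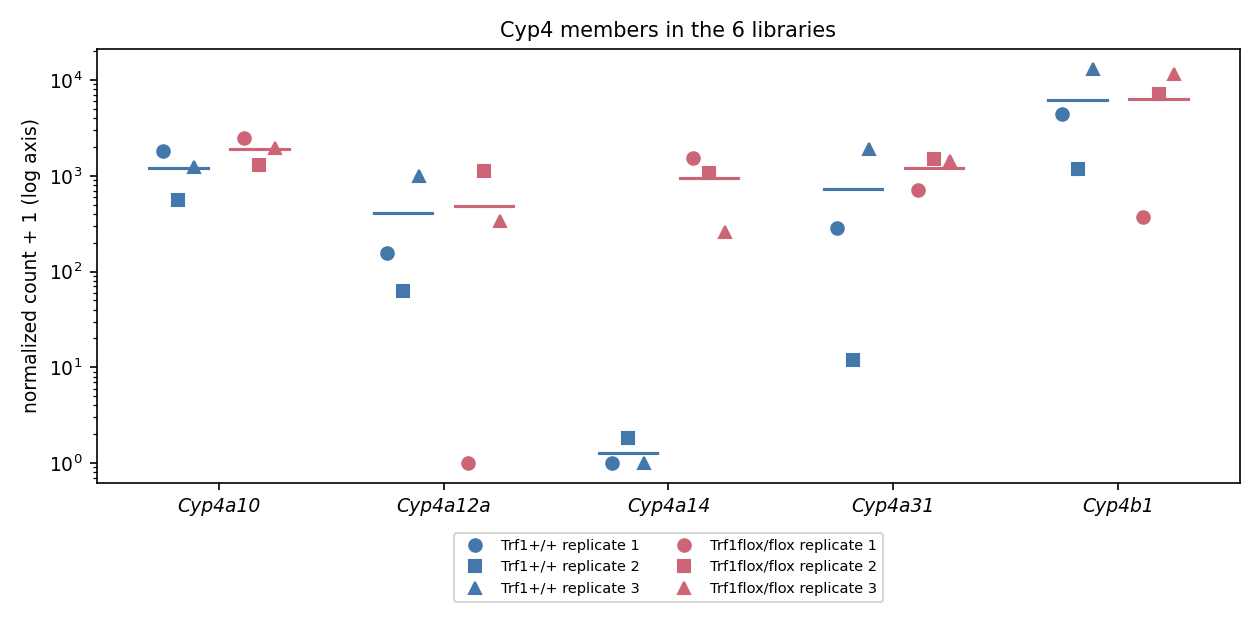
Normalized counts + 1 (log axis) of the 5 listed Cyp4 members, with 1 point per library (circle, square and triangle for replicates 1, 2 and 3) in blue for Trf1+/+ and red for Trf1flox/flox, and bars at the group means. The groups stand apart for Cyp4a14 and overlap for the other 4 members, and the Trf1flox/flox replicate 1 circle is at 0 for Cyp4a12a.

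Across all genes the limma fit called 0% of 9966 tested genes at an adjusted p under 0.05. At an unadjusted p under 0.05 it had 2.1% higher and 1.03% lower in Trf1flox/flox, and the DESeq2 fit on recovered reads called 0.617% of 9407 genes. Of the 5 listed members, 0 were called by limma at the adjusted threshold and 1, *Cyp4a14*, at the unadjusted one and by DESeq2, counts from which nothing is read because the set was chosen on this contrast. The groups did not overlap for 1 of 5 members, again *Cyp4a14*, beside 5.35% of all tested genes that were higher and 3.33% that were lower without overlap. For *Cyp4a14* this was fixed by the choice of the set, and nothing is read from it either.

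To compare the members with each other, their normalized counts were divided by the length of their exons. Per kb of exon, *Cyp4b1* had the highest level of the members in 5 of 6 libraries, between 60.3% and 76.8% of the members' sum. In Trf1flox/flox replicate 1 it fell behind, with 162 normalized counts per kb or 7.31% of the sum, and *Cyp4a10* led with 1187 per kb or 53.5%. *Cyp4a14* made up 26.6% of the sum in that library, 7.87% in Trf1flox/flox replicate 2 and 1.45% in replicate 3. Per kb, the mean levels in Trf1flox/flox followed the order *Cyp4b1* (2825 ± 2506), *Cyp4a10* (912 ± 287), *Cyp4a31* (484 ± 177), *Cyp4a14* (368 ± 248) and *Cyp4a12a* (199 ± 236), and each mean lay within the summed SDs of its neighbours in this order. In Trf1+/+ the order was *Cyp4b1* (2767 ± 2719), *Cyp4a10* (569 ± 300), *Cyp4a31* (289 ± 404) and *Cyp4a12a* (168 ± 215), with *Cyp4a14* last at 0.106 ± 0.184. Neighbours in this order again differed by less than their summed SDs.

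**Figure D2:**
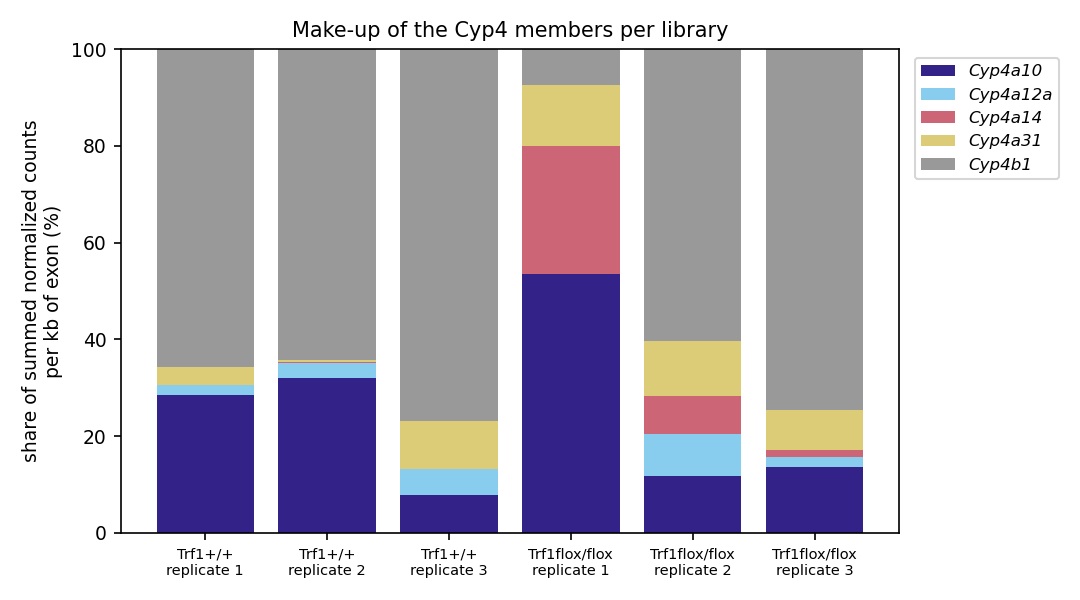
Share (%) of each member in the members' summed normalized counts per kb of exon, 1 bar per library. Cyp4b1 fills 60.3% to 76.8% of 5 bars and 7.31% of Trf1flox/flox replicate 1, where Cyp4a10 and Cyp4a14 fill 53.5% and 26.6%.

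The Cyp4a genes are known from the proximal tubule, and the amount of proximal tubule RNA differed between libraries, so each member was also divided by the summed level of the 20 proximal tubule markers. Per 1000 normalized counts of these markers, *Cyp4a14* measured 0, 0.0290 and 0 for Trf1+/+, against 42.5, 11.3 and 1.66 for Trf1flox/flox. The groups did not overlap on this scale either, but the Trf1flox/flox libraries lay further apart, and their mean of 18.5 ± 21.4 (SD, n = 3) was 6.46 without Trf1flox/flox replicate 1. The markers include *Kap* and *Slc7a13*, which are also among the sex-biased genes read below. *Kap* alone was 71943 normalized counts in Trf1+/+ replicate 1 and 5058 in Trf1flox/flox replicate 1. With both left out of the marker sum, the Trf1flox/flox mean was 23.1. The part of sex in the marker sum was not tested. *Cyp4a10* per 1000 marker counts was 14.6, 19.5 and 10.9 in Trf1+/+ and 69.4, 13.5 and 12.6 in Trf1flox/flox, so that 1 library stood above the other 5. *Cyp4b1* went the other way in that library, with 10.1 there against 35.9 to 116 elsewhere. Collecting duct markers, 7 of 7 listed, also summed highest in Trf1flox/flox replicate 1, at 19456 normalized counts against 930 to 7054 in the others. That sum was mostly *Aqp2*, the collecting duct water channel, with 16844 there and at most 1144 elsewhere, while *Slc26a4*, of intercalated cells, was 0 there and up to 3168 elsewhere. The part of collecting duct RNA in these values was not tested.

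The labels do not separate the sexes, so genes linked to sex were read beside the members. *Xist*, transcribed from the inactive X chromosome of females, measured 0, 0.829 and 0.985 normalized counts for Trf1+/+, against 1565, 55.7 and 0 for Trf1flox/flox. *Ddx3y*, on the Y chromosome, was 997, 602 and 781 in Trf1+/+ and 0, 116 and 291 in Trf1flox/flox. Trf1flox/flox replicate 1 therefore had *Xist* and no *Ddx3y* reads, replicate 2 had both, and replicate 3 had *Ddx3y* and no *Xist* reads. All 3 sex-linked genes that passed the filter were lower in the fit (median log2 fold change −3.61). Limma called 0 at the adjusted threshold and 1 (*Ddx3y*) at the unadjusted one, beside 1.03% of all tested genes lower there. DESeq2 called 0. The groups did not overlap for 2 of the 3, *Ddx3y* and *Uty*, both lower, beside 3.33% of all tested genes. In Trf1flox/flox replicate 3, with no *Xist* read, *Cyp4a14* was 259.8 normalized counts.

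Among 12 listed genes known for sex-biased expression in mouse kidney, 5 were at 0 in Trf1flox/flox replicate 1 and at most 2 in any other library. *Slc7a13*, a male-biased amino acid transporter, measured 3354, 263 and 4419 normalized counts for Trf1+/+, against 0, 1834 and 6106 for Trf1flox/flox. It shared its 0 in Trf1flox/flox replicate 1 with *Cyp4a12a*. *Slc7a12*, a female-biased relative, was 0.891, 24.9 and 0 in Trf1+/+ and 911, 0 and 203 in Trf1flox/flox. It was high in replicates 1 and 3, whereas *Cyp4a14* was high in replicate 2 as well. Of the 12 genes, 4 had a positive and 8 a negative fitted log2 fold change (median −0.24), beside 55.9% positive among all tested genes. Limma called 0. At an unadjusted p under 0.05 limma had 1 higher (*Prlr*) and 1 lower (*Hsd11b1*), beside 2.1% and 1.03% of all tested genes. DESeq2 called 1, *Prlr*, beside 0.617% of 9407 genes. *Prlr* passed the filter on low values only through the Trf1flox/flox libraries, so nothing is read from its call or its unadjusted p. The part of sex in the level of *Cyp4a14* and *Cyp4a12a* was not tested.

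**Figure D3:**
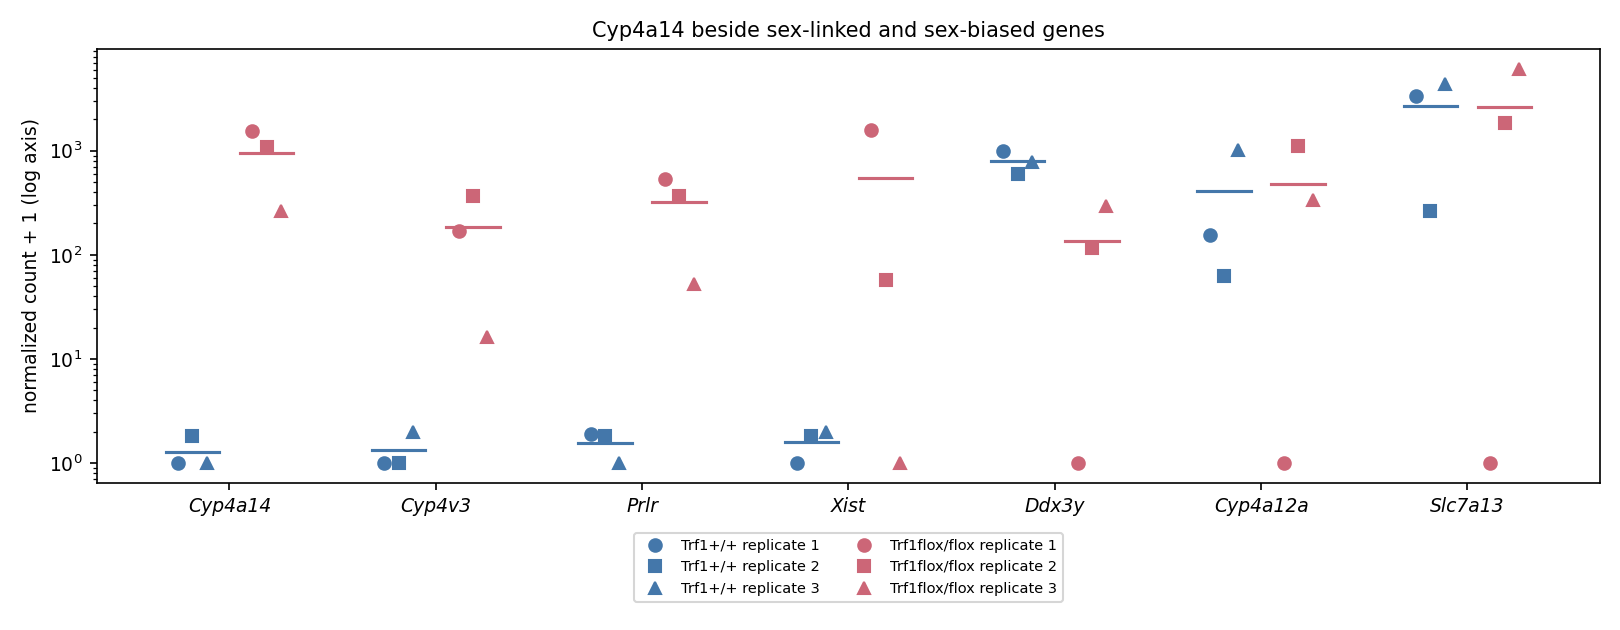
Normalized counts + 1 (log axis) of Cyp4a14, Cyp4v3, Prlr, Xist, Ddx3y, Cyp4a12a and Slc7a13 per library, with symbols, colours and mean bars by replicate and genotype. Cyp4a14, Cyp4v3 and Prlr are above their Trf1+/+ values in all 3 Trf1flox/flox libraries, Xist in 2 of them, and Trf1flox/flox replicate 1 is at 0 for Ddx3y, Cyp4a12a and Slc7a13.

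Of 14 other Cyp4 genes only 4 had a row. *Cyp4v3*, a fatty acid omega hydroxylase encoded on chromosome 8 and thus outside the cluster, measured 0, 0 and 0.985 normalized counts for Trf1+/+, against 168, 367 and 15.2 for Trf1flox/flox. As for *Cyp4a14*, the groups did not overlap and replicate 3 was the lowest of the Trf1flox/flox libraries. The mean of 183 ± 177 (SD, n = 3) was at least 67.8-fold higher than in Trf1+/+, and at least 33.8-fold higher without Trf1flox/flox replicate 2. *Cyp4v3* passed the filter on low values only through the Trf1flox/flox libraries, so no p is given for it. The remaining genes, *Cyp4f13* (920, 418 and 525 against 586, 730 and 188), *Cyp4f16* (0, 2.49 and 204 against 146, 242 and 0) and *Cyp4f17* (0, 152 and 12.8 against 53.3, 18.6 and 61.3), belong to the CYP4F branch of the family, known for hydroxylating long fatty acids and leukotrienes, and their groups overlapped.

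The genes that supply or follow the CYP4 enzymes came next. Of the P450 electron donors, 4 of 5 were tested, with 1 positive and 3 negative log2 fold changes (median −0.28). *Por*, the reductase that feeds the P450 enzymes, measured 1266, 87.8 and 371 normalized counts for Trf1+/+, against 647, 1641 and 482 for Trf1flox/flox, with overlapping groups. *Cyb5a*, cytochrome b5, was 32972, 11443 and 18170 against 5317, 16933 and 24748. Of 24 genes of omega oxidation after hydroxylation 20 were tested, with 11 positive and 9 negative values (median 0.09), and of 22 genes of the arachidonic acid epoxygenases and hydrolases 12 were tested, with 7 positive and 5 negative (median 0.24). Both lists, like the electron donors, had 0 called by DESeq2 and 0 by limma, at the adjusted or the unadjusted threshold, beside a median of 0.20 over all tested genes.

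PPARα, encoded by *Ppara*, is the best known activator of Cyp4a genes. *Ppara* itself measured 0, 31.5 and 56.2 normalized counts for Trf1+/+, against 137, 45.9 and 43.4 for Trf1flox/flox, with overlapping groups. Of 40 PPARα target genes other than the members 34 were tested, 23 with a positive and 11 with a negative log2 fold change (median 0.27), and 0 were called by limma, at the adjusted or the unadjusted threshold, or by DESeq2. The groups did not overlap for 3 of the 34, all higher in Trf1flox/flox, beside 5.35% of all tested genes. *Acot1*, a cytosolic acyl-CoA thioesterase, was 37.4, 35.6 and 60.1 against 363, 507 and 109.6, the most even Trf1+/+ values among the 3. *Slc27a1*, a fatty acid transporter, was 0, 239 and 208 against 521, 812 and 311. *Acaa1b*, a peroxisomal thiolase that also belongs to the omega oxidation list, was 697, 87.8 and 694 against 1032, 919 and 738.

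Among 18 tested regulators of Cyp4a transcription 15 had a positive and 3 a negative log2 fold change (median 0.84), with 0 called by limma (2, *Prlr* and *Stat5a*, at an unadjusted p under 0.05) and 1, *Prlr*, by DESeq2. Of all tested genes 55.9% had a positive value and 2.1% were higher at the unadjusted limma threshold, while DESeq2 called 0.617% of 9407. Without overlap, 2 of the 18 were higher (*Prlr* and *Stat5a*) and 1 lower (*Ppargc1a*), beside 5.35% and 3.33% of all tested genes. The median of the regulators was 0.39 without Trf1+/+ replicate 2, 0.47 in edgeR and 0.44 in DESeq2. *Prlr*, the prolactin receptor, measured 0.891, 0.829 and 0 normalized counts for Trf1+/+, against 534, 368 and 51.7 for Trf1flox/flox. Its Trf1flox/flox libraries came in the same order as those of *Cyp4a14*. The mean of 318 ± 245 (SD, n = 3) was at least 118-fold higher, and at least 77.6-fold higher without Trf1flox/flox replicate 1. *Prlr* too passed the filter only through the Trf1flox/flox libraries, so neither its call by DESeq2 nor its unadjusted p is independent of its being high there. *Stat5a*, a transcription factor downstream of that receptor, was 0.891, 51.4 and 0 against 229, 264 and 139, also without overlap. Its Trf1+/+ libraries alone would not have passed it through the filter on low values. The unadjusted p of *Stat5a* is therefore not independent of its being high in Trf1flox/flox either. *Ppargc1a*, a coactivator of PPARα, was lower without overlap, 2187, 2743 and 2429 against 2164, 789 and 751, although Trf1flox/flox replicate 1 lay just below the Trf1+/+ range.

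**Figure D4:**
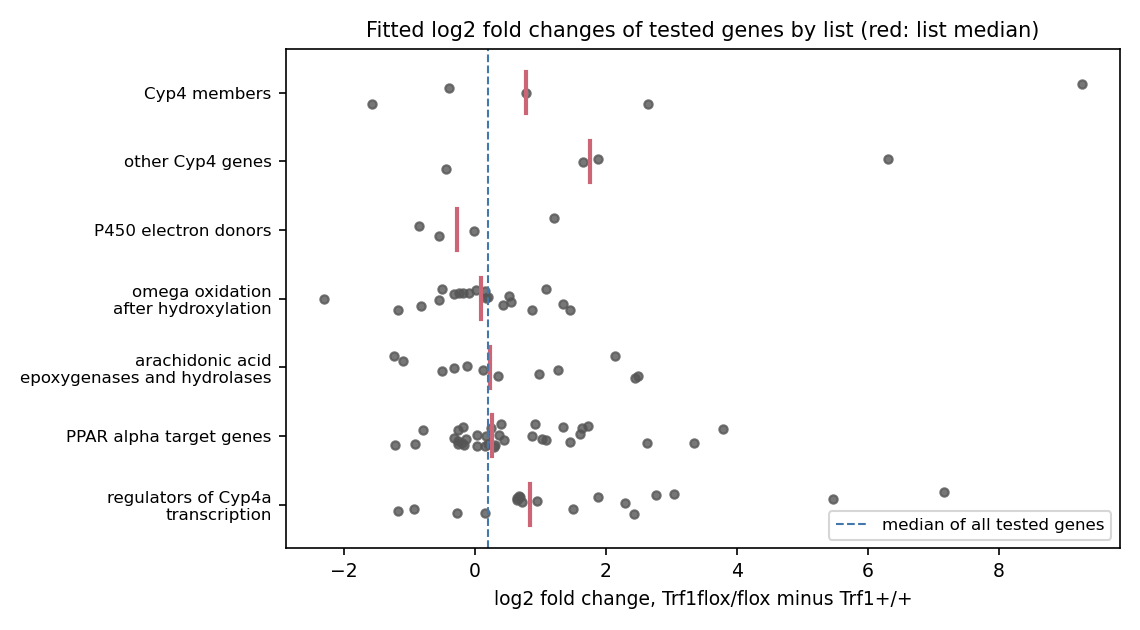
Fitted log2 fold changes (Trf1flox/flox minus Trf1+/+) of the tested genes in each list, 1 point per gene, with red bars at the list medians and a dashed line at the median of all tested genes, 0.20. Cyp4a14 (9.27), Prlr (7.17) and Cyp4v3 (6.32) lie far to the right of their lists, and the fitted value of each depends on the pseudocount because Trf1+/+ is at or under the floor.

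The genes around the cluster were examined because the 5 listed members share a stretch of chromosome 4. Of the 5 listed genes on each side, *Spata6*, *Slc5a9*, *Trabd2b*, *Cmpk1* and *Pdzk1ip1* before it and *Efcab14*, *Atpaf1*, *Mob3c*, *Mknk1* and *Faah* after it, 8 were tested, with 5 positive and 3 negative log2 fold changes. For 0 of the 8 did the groups stand apart, beside 5.35% of all tested genes higher and 3.33% lower without overlap. Limma and DESeq2 called 0 of them, beside 0% of 9966 and 0.617% of 9407 genes. At an unadjusted p under 0.05 limma had 1 higher (*Faah*), beside 2.1% of all tested genes. With only 8 genes, nothing is read from these counts about the neighbourhood. *Faah*, which hydrolyses fatty acid amides, measured 0.891, 0.829 and 170 normalized counts for Trf1+/+, against 771, 504 and 108 for Trf1flox/flox. Like *Cyp4a14* it was near 0 in Trf1+/+ replicates 1 and 2, but not in replicate 3. *Faah* would not have passed the filter on low values through its Trf1+/+ libraries alone. Its unadjusted p is therefore not independent of its level in Trf1flox/flox.

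The genes whose profile over the 6 libraries was most like that of *Cyp4a14*, by the root mean square difference of centred log2(normalized count + 1) values, were *Gmppb* (0.92), *Tmem38b* (1.07), *B9d2* (1.10), *Ppic* (1.12) and *Prlr* (1.12). For *Cyp4b1*, the member with the highest mean normalized count, they were *Zfp428* (0.39), *Slc7a7* (0.47), *Cfb* (0.57), *Cyp2e1* (0.58) and *Ces1f* (0.60). *Slc7a7* is an amino acid transporter of the tubule and *Cyp2e1* another P450. The differences are not compared between *Cyp4a14* and *Cyp4b1*, because they also grow with the size of a profile's swings. *Zfp428* was low, with 8, 2 and 46 reads in Trf1+/+ and 0, 11 and 55 in Trf1flox/flox. The likenesses are descriptions over 6 libraries, in which genes also vary together with the cell make-up of each library.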

How the data were processed

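The authors deposited 1 table of normalized counts per gene, a signal obtained from HTSeq read counts divided by 1 size factor per library. Per the labels, cDNA was primed with oligo(dT) and the libraries were unstranded. The submitters' processing notes name FastQC 0.11.7, TopHat2 2.0.10, Bowtie 1.0.0, SAMtools 0.1.19, HTSeq 0.6.1, DESeq2 and the build GRCm39, whereas the study's methods name GRCm38, so coordinates here are those of GRCm38 in GENCODE M21. The study's methods allowed a read several alignments in TopHat2, and how HTSeq counted such reads is not given in the sources used here. They also name a stranded library type for TopHat2, whereas the labels call the libraries unstranded. Values were whole multiples of each library's smallest value for 100% of entries (tolerance 1e-06 reads), and reads were recovered this way. On them edgeR 4.0.16 called 0 genes and DESeq2 1.42.0 called 58.

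Replicate numbers follow accession order and pair nothing. The study gives 3 mice per genotype for the sequencing, and each library was taken as 1 mouse. The main fit was limma 3.58.1 in R 4.3.3 (lmFit, eBayes with a trend of the spread on the level) on log2(normalized count + 1), for the 9966 genes that reached 10 normalized counts in 3 or more libraries, with Benjamini-Hochberg adjustment. A fold change on this scale understates the change of low genes. Lower bounds divide a group mean by 3 reads per library. Scripts were tested on simulated data.

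The members and lists were chosen with earlier results of these data known. The genes named were the members, every other listed Cyp4 gene, up to 4 genes of each list whose groups did not overlap, 5 listed genes on each side of the cluster, the 5 nearest profiles, *Terf1* and cell type markers by their sum. *Por*, *Cyb5a*, *Ppara*, *Xist*, *Slc7a12* and *Slc7a13* were named after their values were seen. Alternatives were other pseudocounts, no filter, upper quartile scaling, count models and leaving out libraries. After seeing the data, limma without the trend and leaving out replicate 1 of both genotypes were added.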

Additional observations from a re-analysis of the deposited data

How the results depend on the processing

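Of 191 recomputed values 178 kept their direction and their side of the threshold or moved by less than the spread between libraries. This tally is no measure of stability, because some of the values could not change. The mean of *Cyp4a14* per marker count uses Trf1flox/flox only, so leaving out a Trf1+/+ library left it at 18.5. The list medians are the same without the filter or the trend. Others counted as kept because the spread was wide, such as 6.46 against 18.5 with an SD of 21.4. DESeq2 on recovered reads called 58 genes and 1 member against 0 and 0 in limma, and every other alternative, with edgeR, other pseudocounts of 0.5 and 10, no filter, upper quartile scaling and each library left out, called 0 and 0. The log2 fold change of *Cyp4a12a* reversed to 0.18 in edgeR, 0.24 in DESeq2 and 1.29 without replicate 1 of both genotypes, and ranged from −3.54 to 1.52 when 1 library was left out. That of *Cyp4b1* reversed to 0.087 in edgeR, 0.040 in DESeq2 and 1.21 without replicate 1 of both genotypes, and ranged from −1.34 to 1.15 when 1 library was left out (0.44 without Trf1+/+ replicate 3, 1.15 without Trf1flox/flox replicate 1). The median of the P450 electron donors turned from −0.28 to 0.44 without replicate 1 of both genotypes, 0.10 without Trf1+/+ replicate 1, 0.057 without Trf1flox/flox replicate 1 and 8.1e-04 with upper quartile scaling, and that of the other Cyp4 genes from 1.77 to −0.37 without replicate 1 of both genotypes. Leaving out both was chosen after seeing the data, and the cause of these turns was not tested. Over all alternatives *Cyp4a10* stayed between 0.31 and 1.17, *Cyp4a31* between 0.66 and 4.32 and *Cyp4a14*, whose fitted value depends on the pseudocount, between 6.22 and 11.55. The medians of the omega oxidation list (−0.52 to 0.70) and of the epoxygenase list (−0.30 to 1.10) changed sign, and those of the PPARα targets (0.07 to 0.53) and the regulators (0.39 to 1.36) did not. Upper quartile scaling moved the median of all tested genes from 0.20 to 0.44. No paired analysis was possible because the labels give no replicate numbers.

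Each library held 500 cells and about as many reads as the others. An absent read bounds the RNA captured in that library, but not the RNA in the sorted cells or the kidney. Genes well covered elsewhere were also at 0 in single libraries, unevenly between them. Their share was 12.9% in Trf1+/+ replicate 1 and 9.01% in Trf1flox/flox replicate 2, against 0.932% to 3.68% in the others. The lower bounds on fold changes do not cover such losses. With 3 libraries against 3, an exact permutation test cannot go below p = 0.1. The genes of the Cyp4a cluster share windows of sequence, apart from *Cyp4a14*, and reads from the shared windows cannot be assigned to either copy.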
